A study of Mus musculus with 3 samples.

Results

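Lymphatic endothelial nuclei of the mouse abdominal aorta were chosen by their own counts. A nucleus was taken when it carried UMIs of at least 2 of the genes Prox1, Flt4, Reln, Mmrn1 and Ccl21a, with Prox1, Mmrn1 or Flt4 among them, and when these UMIs together exceeded those of the macrophage genes Mertk and Csf1r. A UMI is a count of 1 captured RNA molecule. The rule was applied to nuclei with 500 UMIs and 300 genes or more, of whose UMIs less than 5% came from mitochondrial genes. Of these 30730 nuclei, 136 met it. There were 22 of 11022 in the room air library, 67 of 14001 in the smoke library and 47 of 5707 in the aneurysm library. The levels of the 5 genes that chose the nuclei are therefore given as a description only.

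Nuclear RNA was read from frozen abdominal aortae of ApoE-/- mice on the C57Bl/6 strain. These mice are prone to high blood cholesterol and atherosclerosis because they lack apolipoprotein E, which the liver needs to take up lipoproteins. All animals were on a high-fat diet for 20 weeks, and during this time breathed either room air (the room air library) or cigarette smoke. Smoke-exposed aortae made up the remaining libraries, free of abdominal aortic aneurysm in one (the smoke library) and with an aneurysm in the other (the aneurysm library). Each group is thus 1 library, and the labels give neither how many animals it holds nor their age. The 3 libraries share the ApoE genotype and the diet, so no library stands for a healthy aorta. A difference between groups cannot be told apart from a difference between single libraries, no test was possible, and no p-value is given.

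Lymphatic vessels drain fluid, lipids and immune cells from tissues, and in large arteries they run mainly in the adventitia, the outer layer of the wall. Blind-ended initial lymphatics take up fluid through loose junctions and pass it to collecting vessels, which have valves. Their endothelium is set apart from that of blood vessels by the transcription factor Prox1, and its growth is driven by VEGF-C through the receptor encoded by Flt4. Reln encodes a secreted matrix glycoprotein, Mmrn1 a secreted multimeric glycoprotein, and Ccl21a a chemokine that draws dendritic cells and T cells into lymphatics.

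The lymphatic endothelial nuclei held 107075 UMIs in the room air library, 336244 in the smoke library and 110889 in the aneurysm library. Their medians were 2114.5, 3554 and 1897 UMIs per nucleus, and their ranges were 512 to 19288, 695 to 23851 and 549 to 7774 UMIs. For comparison, the medians over all nuclei that passed the filters were 4058.5, 6225 and 1443 UMIs. Levels below are CPM, counts of a gene scaled to the total UMIs of the nuclei of a set. Where 3 values follow each other they are in the order room air, smoke, aneurysm. Their 95% intervals, given in parentheses, are exact and cover counting error only. Few barcode sequences were shared between libraries (36, 26 and 17 among filtered nuclei for the 3 pairs of libraries), and 0 of them belonged to lymphatic endothelial nuclei.

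Among genes outside the rule, 13 genes of lymphatic endothelium (Lyve1, Pdpn, Nrp2, Sema3a, Sema3d, Tbx1, Klhl4, Stab2, Maf, Nr2f2, Sox18, Ackr2 and Angpt2) served to check the label. Sema3a and Sema3d, which encode secreted guidance proteins of the semaphorin family, and Klhl4, which encodes a kelch-like protein, had the most UMIs of this list in the aneurysm library, 241, 123 and 117. Their promoters are shown because all 3 were higher in that library than in the other two, as given below. Each run covers 250 bases before to 50 bases after the gene's start in RefSeq on GRCm38.p6, all on the + strand. Capitals mark ACAAAG or its reverse complement CTTTGT, the core letters bound by SOX factors, a family to which the lymphatic factor Sox18 belongs. The windows lie at chr5:13396534-13396833 for Sema3a, chr5:12382916-12383215 for Sema3d and chrX:114474083-114474382 for Klhl4.
Sema3a: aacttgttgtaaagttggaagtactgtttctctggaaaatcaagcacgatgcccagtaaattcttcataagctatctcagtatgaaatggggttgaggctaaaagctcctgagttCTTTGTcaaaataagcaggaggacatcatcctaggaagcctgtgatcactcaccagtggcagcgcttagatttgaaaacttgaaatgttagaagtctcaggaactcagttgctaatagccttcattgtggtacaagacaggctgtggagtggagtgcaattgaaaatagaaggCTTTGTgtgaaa
Sema3d: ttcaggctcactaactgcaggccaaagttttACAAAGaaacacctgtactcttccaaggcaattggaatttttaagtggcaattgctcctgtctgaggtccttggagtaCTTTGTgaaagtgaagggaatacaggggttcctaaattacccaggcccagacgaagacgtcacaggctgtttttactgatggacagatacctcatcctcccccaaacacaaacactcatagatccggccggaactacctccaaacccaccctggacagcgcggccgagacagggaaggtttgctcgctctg
Klhl4: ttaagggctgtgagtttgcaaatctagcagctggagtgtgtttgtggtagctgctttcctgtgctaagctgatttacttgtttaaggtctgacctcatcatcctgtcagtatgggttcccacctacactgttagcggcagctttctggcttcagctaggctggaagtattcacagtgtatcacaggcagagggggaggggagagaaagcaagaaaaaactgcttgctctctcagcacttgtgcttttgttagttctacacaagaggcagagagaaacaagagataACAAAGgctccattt
The letters occurred 2 times in the Sema3a window, 2 times in the Sema3d window and 1 time in the Klhl4 window. The Klhl4 window also held AGGTCA and TGCTGA 1 time each, counting both strands, and TGTTTAC was in none of the 3 windows. Among 32851 RefSeq promoters of the same length, 18.7% held ACAAAG on either strand, 16.3% AGGTCA, 19.5% TGCTGA and 3.65% TGTTTAC. Of the 13 genes of the list, 9 had an entry in the promoter table, and 5 of these 9 held ACAAAG. A match of this length is a description of the letters and not a binding site.

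As a sum, the listed genes stood above blood endothelium in all 3 libraries, least so in room air. The 13 genes summed to 2241 CPM in room air, 4720 CPM in smoke and 6836 CPM in the aneurysm library, against 261, 375 and 434 CPM in blood endothelial nuclei of the same libraries. In the nuclei that were not led by blood endothelial genes, as described below, they summed to 3628, 5569 and 7079 CPM. The 13 genes entered that criterion, so these higher sums are partly set by it. Blood endothelial nuclei were those without a Prox1 UMI that carried at least 3 of Flt1, Vwf, Cdh5, Pecam1, Ptprb, Tek, Erg and Emcn, with more UMIs of these than of Mertk and Csf1r, and they numbered 1892, 2471 and 947. Angpt2 was at 0 UMIs in room air, and Stab2 and Sox18 were at 0 UMIs in the aneurysm library. Prox1 (ENSMUSG00000010175) had a UMI in 17 of 22, 56 of 67 and 39 of 47 lymphatic endothelial nuclei, and in 0.405%, 0.441% and 0.625% of macrophage nuclei, which should lack it and lay at median depths of 6138, 8296 and 1808.5 UMIs.

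Some nuclei that met the rule carried mainly blood endothelial genes. In 4 nuclei from room air, 5 from smoke and 2 from the aneurysm library, the summed UMIs of Flt1, Vwf and Bmp6 reached those of the rule genes and the 13 listed genes together. This criterion was chosen after the values were seen. These nuclei were deep, with medians of 11163.5, 10602 and 2192 UMIs, and they held 40.3%, 16.8% and 3.95% of the UMIs of the set. They accounted for 364 of 419 Bmp6 UMIs in room air, 402 of 476 in smoke and 5 of 17 in the aneurysm library. The rule's threshold was weakest in room air as well. There, the 9 nuclei with exactly 2 rule genes held the 13 listed genes at 711 CPM and Flt1, Vwf and Bmp6 at 7709 CPM, close to the 98 nuclei outside the rule with 1 rule gene (423 and 6372 CPM). In the aneurysm library the 23 nuclei with exactly 2 rule genes held the listed genes at 6501 CPM, against 824 CPM in the 88 nuclei with 1 rule gene. In the smoke library these values were 1580 CPM in 19 nuclei and 496 CPM in 123 nuclei. Leaving the blood-led nuclei out raises the level of a gene they do not carry 1.67-fold in room air, 1.20-fold in smoke and 1.04-fold in the aneurysm library. Levels are given for all lymphatic endothelial nuclei, with values without the blood-led nuclei beside the main results they touch.

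Lymphatic endothelial nuclei took a larger share of the smoke library than of the room air library, and a larger share still of the aneurysm library. Their shares were 0.200% (0.125 to 0.302) in room air, 0.479% (0.371 to 0.607) in smoke and 0.824% (0.606 to 1.09) in the aneurysm library. The ratio of shares was 2.40 (1.46 to 4.08) for smoke over room air, 1.72 (1.16 to 2.54) for aneurysm over smoke and 4.13 (2.44 to 7.19) for aneurysm over room air. Blood endothelial nuclei, by contrast, took 17.2%, 17.6% and 16.6% of the libraries. Of lymphatic and blood endothelial nuclei together, lymphatic nuclei were 1.15% (0.722 to 1.74), 2.64% (2.05 to 3.34) and 4.73% (3.49 to 6.24).

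**Figure D1:**
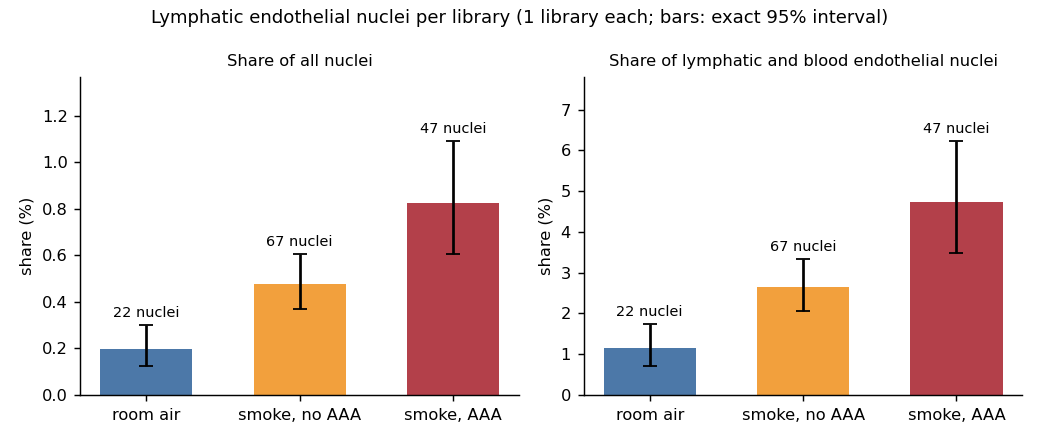
Share of lymphatic endothelial nuclei among all nuclei (left panel, %) and among lymphatic and blood endothelial nuclei (right panel, %) in the 3 libraries. Bars are single libraries, whiskers are exact 95% intervals of counting error, and the share is lowest in room air (22 nuclei) and highest in the aneurysm library (47 nuclei).

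The order of the shares was the same under tighter definitions, although the step from smoke to aneurysm became smaller with at least 3 rule genes. With nuclei thinned to 1000 UMIs each and shallower nuclei left out, 15, 43 and 22 lymphatic endothelial nuclei were found, and the 3 ratios of shares were 2.19, 1.67 and 3.65. With at least 3 rule genes they were 2.91, 1.23 and 3.57, on 13, 48 and 24 nuclei. Without the blood-led nuclei they were 2.71, 1.78 and 4.83. Without nuclei in which markers of another class reached the rule genes they were 3.63, 1.80 and 6.54, on 13, 60 and 44 nuclei. No intervals were computed for the ratios under these definitions. Whether their steps from smoke to aneurysm exceed counting error was therefore not tested. The magnetic sort of nuclei and the minimum of 500 UMIs can set these shares, and the lower share of macrophage nuclei in the aneurysm library (640 of 5707, against 5895 of 14001 in smoke) enters the denominator of the first measure. The shares of endothelial nuclei have a denominator without macrophages and gave ratios of 2.30 (1.40 to 3.91), 1.79 (1.21 to 2.64) and 4.11 (2.43 to 7.17). This denominator depends on depth too. In nuclei thinned to 1000 UMIs, the 15, 43 and 22 lymphatic nuclei stood beside 1343, 1697 and 629 blood endothelial nuclei. The part of depth and of the macrophage share in these ratios was not tested.

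The rule genes varied among the libraries in different ways. Prox1 was at 458 CPM (339 to 605) in room air, 735 (646 to 832) in smoke and 1037 (856 to 1245) in the aneurysm library, and Reln ran the other way, at 2811 (2502 to 3147), 1972 (1825 to 2128) and 974 (799 to 1176) CPM. Flt4 was at 346, 535 and 532 CPM and Mmrn1 at 663, 892 and 857 CPM. Without the blood-led nuclei Prox1 was at 719, 866 and 1070 CPM, Reln at 4691, 2260 and 1014 CPM and Mmrn1 at 1110, 1034 and 883 CPM, so the order of the libraries for Mmrn1 depended on these nuclei. Reln was seen in 14 of 22, 57 of 67 and 24 of 47 nuclei. Ccl21a had 9, 39 and 5 UMIs, of which counts may be split among near-identical Ccl21 copies, and its copy Ccl21b was at 0 UMIs in all 3 libraries. Blood endothelial nuclei held Reln at 1.79, 1.03 and 4.87 CPM and Flt4 at 13.2, 13.3 and 21.0 CPM.

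Most measured genes of the list of 13 lay above blood endothelium in each library. Sema3a (ENSMUSG00000028883) was at 420 CPM (307 to 562) in room air, 907 (808 to 1015) in smoke and 2173 (1908 to 2466) in the aneurysm library, against 7.34, 13.2 and 13.1 CPM in blood endothelial nuclei. Nrp2, which encodes a receptor that binds VEGF-C, was at 542, 1026 and 875 CPM against 67.2, 111 and 181 CPM. Sema3d was at 336, 645 and 1109 CPM against 5.49, 16.5 and 8.22 CPM. All 3 genes were thus higher in the lymphatic nuclei of every library. Lyve1 (ENSMUSG00000030787), the hyaluronan receptor of initial lymphatics, had only 15, 49 and 9 UMIs, but its 140 (78.4 to 231), 146 (108 to 193) and 81.2 (37.1 to 154) CPM stood against 0.239, 0.791 and 0.304 CPM in blood endothelium. The transcription factor Maf was at 177, 467 and 622 CPM against 13.7, 27.1 and 22.5 CPM, and Nr2f2, which acts with Prox1 in lymphatic fate, at 205, 449 and 622 CPM against 19.3, 50.0 and 70.0 CPM. Klhl4 was at 290, 571 and 1055 CPM against 66.2, 56.5 and 78.8 CPM. Room air levels without the blood-led nuclei were 907 CPM for Nrp2, 563 for Sema3d, 235 for Lyve1, 297 for Maf and 344 for Nr2f2. The UMIs of these genes entered the criterion for blood-led nuclei, so their higher levels are partly set by that choice. Of the 13 genes, 7 had at least 30 UMIs over both sets in every library, and 6, 7 and 7 of them were at least 2-fold higher in lymphatic nuclei of the 3 libraries, beside 11.9%, 8.15% and 11.9% of all genes measured. Their median log2 ratios were 3.41, 3.34 and 3.74, beside 0.05, 0.03 and -0.05 over all 7107 genes measured.

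Over all genes, 204 of 7107 (2.87%) were at least 2-fold higher in lymphatic than in blood endothelial nuclei in all 3 libraries, and 114 (1.6%) were at least 2-fold lower. The nuclei were chosen by expression within the same counts, so this contrast is a description. The genes named by rank began with Pard6g, which encodes a cell polarity protein, at 458, 752 and 469 CPM against 2.81, 6.09 and 3.35 CPM. Prkcq, which encodes protein kinase C theta, was 61.0-fold, 61.6-fold and 196-fold higher, and Hmcn1, which encodes the extracellular protein hemicentin, 59.2-fold, 42.0-fold and 63.5-fold. Galnt18, a glycosyltransferase gene, was at 1569, 3572 and 4419 CPM, 36.9-fold, 65.4-fold and 22.1-fold higher. Ptn (pleiotrophin), the adhesion gene Ncam2, the phospholipase gene Plce1, the neuronal membrane glycoprotein gene Gpm6a, the metalloprotease gene Tll1, the endothelin receptor gene Ednrb, the sialic acid hydroxylase gene Cmah, the endocytic adaptor gene Ston2 and Ralgps2 completed the list of 15 together with Sema3a and Sema3d. Of these 15 genes, the smallest ratio in any library was 18.6-fold, for Ston2 in room air. In room air, 1 nucleus held all 15 UMIs of Ptn, 15 of 17 of Ednrb, 29 of 43 of Ncam2 and 61 of 74 of Tll1.

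**Figure D2:**
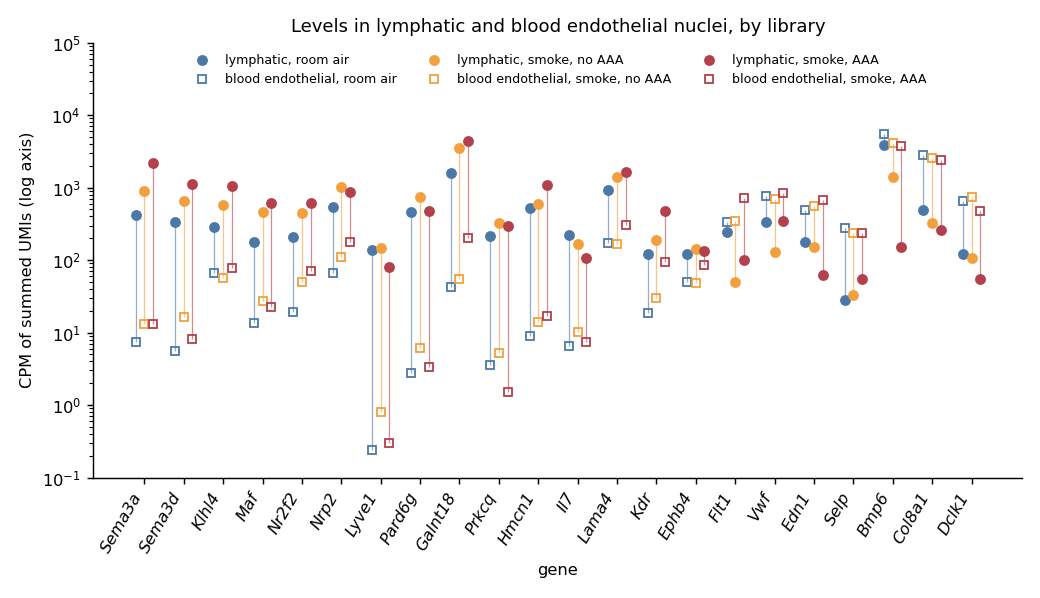
Levels (CPM of summed UMIs, log axis) of 22 genes in lymphatic endothelial nuclei (filled circles) and blood endothelial nuclei (open squares) of each library, joined by a line. Lymphatic genes at the left lie higher in the lymphatic nuclei of all 3 libraries, and Flt1, Vwf, Edn1, Selp, Bmp6, Col8a1 and Dclk1 at the right lie lower. Flt1 and Vwf were among the genes that chose the blood endothelial nuclei.

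Blood endothelial genes were lower, least clearly in room air. Of 12 measured genes of the blood endothelial list, 4 in room air, 8 in smoke and 8 in the aneurysm library were at least 2-fold lower in lymphatic nuclei, beside 11.4%, 10.1% and 16.2% of all genes measured. The median log2 ratios of the list were -0.48, -1.47 and -2.12, and -1.70, -2.51 and -2.19 without the blood-led nuclei, which were chosen by 3 blood endothelial genes. Flt1 and Vwf were among the genes that chose both the blood endothelial and the blood-led nuclei. They are therefore not among the 12 measured genes, and their levels are given as a description only. Bmp6, which also chose the blood-led nuclei, was kept among the 12. The list medians without these nuclei are therefore partly set by that choice. Flt1, which encodes a VEGF receptor of blood endothelium, was at 243, 50.6 and 99.2 CPM against 337, 350 and 716 CPM, and without the blood-led nuclei at 15.6, 3.58 and 56.3 CPM. The platelet-adhesion gene Vwf was at 336, 128 and 352 CPM against 758, 696 and 834 CPM, and without the blood-led nuclei at 62.6, 68.0 and 329 CPM. Selp, the adhesion molecule P-selectin, was at 28.0, 32.7 and 54.1 CPM against 281, 237 and 238 CPM, and at 15.6, 7.15 and 46.9 CPM without them. Among genes named by rank, Lrrc3b had 0 UMIs in the lymphatic nuclei of all 3 libraries, and set against a floor of 3 UMIs over each set it was at least 4.04-fold, 16.5-fold and 3.92-fold lower. The collagen gene Col8a1 was 5.90-fold, 8.06-fold and 9.13-fold lower, falling from 486 to 62.6 CPM in room air without the blood-led nuclei, and the kinase gene Dclk1 was at 121, 107 and 54.1 CPM against 664, 749 and 471 CPM. Gask1b, Ablim1, Lims2, Samd12 and Pde3a were the other 5 genes named.

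Genes common to both endothelia were present in lymphatic nuclei. The 18 genes of this list, among them Pecam1, Cdh5, Tek and Erg, summed to 7780, 6353 and 7972 CPM against 10949, 10180 and 12380 CPM in blood endothelial nuclei. Pecam1, Cdh5, Tek and Erg were among the genes that chose the blood endothelial nuclei, so the sums there are partly set by that choice. The lymphatic sums without the blood-led nuclei were 4676, 5397 and 7906 CPM, so that room air lay below smoke rather than above it. Kdr, a VEGF-A and VEGF-C receptor, was at 121, 190 and 478 CPM against 18.6, 30.3 and 92.8 CPM in blood endothelial nuclei. Calcrl, the receptor of adrenomedullin, was at 458, 515 and 956 CPM against 241, 289 and 475 CPM. Both were higher in the lymphatic nuclei of each library. Of the growth signalling list of 22 genes, 15 were measured and 5, 4 and 6 were at least 2-fold higher and 2, 1 and 2 lower, against the shares of all genes given above. Ephb4, which with Efnb2 patterns lymphatic valves, was at 121, 143 and 135 CPM against 50.3, 48.7 and 85.8 CPM. The ligand gene Vegfc was lower in lymphatic nuclei, at 28.0, 116 and 27.1 CPM against 201, 218 and 314 CPM, with 24 of its 39 UMIs in smoke in 1 nucleus, and at 0, 21.5 and 28.2 CPM without the blood-led nuclei. Angpt2 had 45 of its 58 smoke UMIs in 1 nucleus and is not compared. Of genes that act on leukocytes, the T cell survival factor Il7 was at 224, 167 and 108 CPM against 6.63, 10.2 and 7.31 CPM (375 CPM in room air without the blood-led nuclei), Ackr2, a chemokine scavenger, had 2, 19 and 3 UMIs, and Spns2, the exporter of sphingosine 1-phosphate, was at 103, 202 and 162 CPM against 63.4, 50.7 and 80.1 CPM. The laminin gene Lama4, a basement membrane component, was at 925, 1404 and 1650 CPM against 170, 169 and 307 CPM, with UMIs in 18 of 22, 60 of 67 and 39 of 47 nuclei.

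Markers of most other cell types were low or at 0, while those of pericytes in room air and smoke, and of fibroblasts in smoke, reached levels near or above those of all other nuclei. Adipocyte markers had 0, 0 and 1 UMIs, although all other nuclei of the aneurysm library held them at 579 CPM, and mesothelial markers had 0 UMIs in all 3 libraries. Neuron markers had 1, 4 and 4 UMIs, Schwann cell markers 5, 6 and 0, T and NK markers 3, 17 and 0, B cell markers 3, 6 and 0, platelet markers 0, 4 and 1, and striated muscle markers 0, 1 and 0. The 8 macrophage markers summed to 607, 604 and 271 CPM against 3188, 3640 and 1113 CPM in all other nuclei, with Cd163 at 0 UMIs in each library. Smooth muscle markers summed to 112, 107 and 198 CPM against 495, 602 and 747 CPM, and pericyte markers to 149, 161 and 72.1 CPM against 151, 185 and 229 CPM. The 7 fibroblast markers summed to 467, 1074 and 153 CPM against 691, 777 and 1103 CPM, so they were higher in the lymphatic nuclei of the smoke library than in its other nuclei, and in the smoke library 151 of 155 UMIs of C7 were in 1 nucleus. No doublet caller was run.

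The lymphatic endothelial nuclei were not uniform. Foxp2 and Pkhd1l1 on one side, and the initial lymphatic gene Lyve1 and the mechanosensitive channel gene Piezo2 on the other, were unequally spread over the nuclei. Foxp2 encodes a forkhead transcription factor and Pkhd1l1 a large membrane protein. Nuclei with more Foxp2 and Pkhd1l1 UMIs than Lyve1 and Piezo2 UMIs numbered 12 in room air, 34 in smoke and 31 in the aneurysm library, nuclei with fewer numbered 5, 27 and 8, and 5, 6 and 8 were tied or had none of the 4 genes. This split was chosen after the values were seen. It was made on a difference of UMIs, and whether the sides are separate types was not tested. Of the nuclei on either side, 5 of 17, 9 of 61 and 5 of 39 lay within 1 UMI of the cut and 10 of 17, 46 of 61 and 31 of 39 lay 3 or more UMIs from it. UMIs of both pairs were found in 9, 26 and 8 nuclei.

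**Figure D3:**
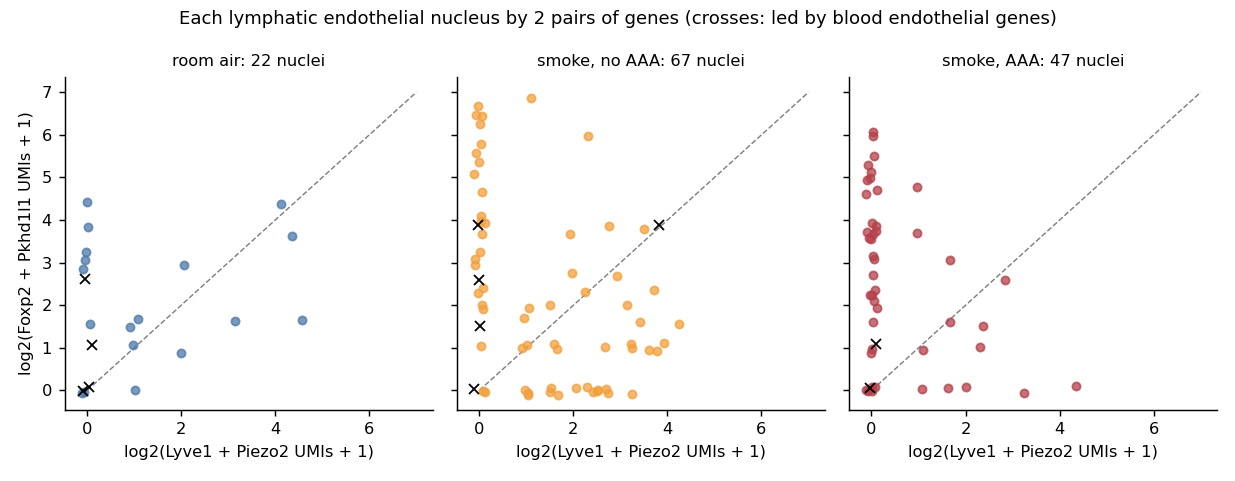
Each lymphatic endothelial nucleus by its Lyve1 and Piezo2 UMIs (horizontal axis) and its Foxp2 and Pkhd1l1 UMIs (vertical axis), both as log2(UMIs + 1), with points shifted slightly at random so that they do not overlap. The dashed line marks equal counts, crosses mark nuclei led by blood endothelial genes, and most nuclei of the aneurysm library lie on the vertical axis (28 of 47 with UMIs of Foxp2 or Pkhd1l1 alone).

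The share of nuclei on the Foxp2 side was highest in the aneurysm library and lowest in smoke. Of the nuclei on either side, 70.6% (44.0 to 89.7), 55.7% (42.4 to 68.5) and 79.5% (63.5 to 90.7) leaned to Foxp2 and Pkhd1l1. The intervals overlapped for every pair of libraries. With Foxp2 alone against Piezo2 alone the shares were 64.7%, 52.6% and 78.9%, and in nuclei thinned to 1000 UMIs they were 55.6%, 52.8% and 70.0%. As levels over all lymphatic nuclei, Foxp2 was at 766, 1808 and 3156 CPM and Pkhd1l1 at 261, 981 and 1659 CPM, while Piezo2 was at 570, 500 and 424 CPM. The room air levels without the blood-led nuclei were 1204 CPM for Foxp2, 422 for Pkhd1l1 and 954 for Piezo2. Blood endothelial nuclei also carried the first pair, Foxp2 at 157, 240 and 114 CPM and Pkhd1l1 at 145, 183 and 112 CPM.

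UMIs of genes that did not enter the split were compared between the 2 sides. They were summed over the 3 libraries without the blood-led nuclei, giving 70 nuclei with 307292 UMIs on the Foxp2 side and 40 nuclei with 123211 UMIs on the Lyve1 side. The aneurysm library gave 85518 UMIs of the first sum and 14598 of the second, so the mix of libraries differed between the sides and enters the pooled ratios. Of 2994 genes measured, 383 (12.8%) were at least 2-fold higher on the Foxp2 side and 265 (8.85%) on the Lyve1 side. Prox1 was at 882 and 893 CPM on these sides, a ratio of 0.988, although in room air alone it was at 510 and 1218 CPM. The other rule genes were higher on the Lyve1 side, Reln 4.92-fold, Ccl21a 7.71-fold, Flt4 1.91-fold and Mmrn1 1.73-fold, which describes how the nuclei met the rule. With the blood-led nuclei included, the median sum of rule gene UMIs per nucleus was 6, 15.5 and 5 on the Foxp2 side and 33, 21 and 10 on the Lyve1 side. Nuclei of the Lyve1 side therefore met the rule with more counts to spare. In the same nuclei, macrophage markers summed to 577, 392 and 147 CPM on the Foxp2 side and 720, 1093 and 1028 CPM on the Lyve1 side. Flt1, Vwf and Bmp6 summed to 5439, 2234 and 657 CPM against 332, 210 and 137 CPM, and no blood-led nucleus was on the Lyve1 side. The part of RNA of other cell types in the differences between the sides was not tested.

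On the Foxp2 side, the genes first by rank were Ncam2 and Epha4. Ncam2, a cell adhesion gene, had 43, 74 and 111 UMIs there and 0 UMIs on the Lyve1 side, which makes it at least 30.5-fold higher against a floor of 3 UMIs over the summed set. Over all lymphatic nuclei its UMIs lay in 2, 7 and 12 nuclei. Epha4, a receptor of ephrins, had 113 UMIs against 0 (at least 15.1-fold), and Efnb2, an ephrin ligand of lymphatic valves, was 4.44-fold higher (2.61 to 8.11). Gata6, a transcription factor gene, was 30.9-fold higher on 77 against 1 UMIs, and the valve factor Gata2 had 16 UMIs against 0. The heparan sulfatase gene Sulf1 was 16.4-fold higher (6.90 to 50.9), the prostaglandin transporter gene Slco2a1 had 126 UMIs against 1, and the endothelial nitric oxide synthase gene Nos3 59 UMIs against 0. Vwf was 5.41-fold higher (2.00 to 20.6) and the Tie2 ligand gene Angpt1 had 56 UMIs against 2. Vcam1 was 5.93-fold higher, but 69 of its 74 UMIs came from the smoke library, where 1 nucleus held 48 of 85. Sema3d was at 970 and 487 CPM and Klhl4 at 895 and 422 CPM, but in room air both were lower on the Foxp2 side (440 against 886 and 209 against 941 CPM). Gria3, Gxylt2, Ccdc3 and Adamts9 were the other genes among the first 10 by rank. Adamts9 and Ccdc3 were also higher in the aneurysm library, and their ranks rest on smoke and aneurysm: Adamts9 had 2, 82 and 127 UMIs on the Foxp2 side against 1, 2 and 0, and Ccdc3 had 0, 18 and 38 UMIs against 0 in each library.

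On the Lyve1 side the genes first by rank included ion channels. The sodium channel gene Scn3a was 30.6-fold higher (11.2 to 117) and the potassium channel gene Kcnn3 13.4-fold (8.15 to 23.1). Apba2, which encodes a synaptic adaptor protein, was at 1052, 917 and 822 CPM on the Lyve1 side and at 69.5, 89.6 and 0 CPM on the Foxp2 side, so it differed the same way in each library. Dlg1, a scaffold gene of cell junctions, was at 4760, 2794 and 2466 CPM against 1043, 677 and 421 CPM. Ablim3, Myzap, Slco2b1, Slc9a9 and Rbm47 were also among the first 10. Il7 was 3.17-fold higher (2.02 to 5.01) and Lama4 1.76-fold (1.51 to 2.05). On the Lyve1 side Il7 was at 498 CPM in room air and 409 CPM in smoke and had 1 UMI in the aneurysm library.

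**Figure D4:**
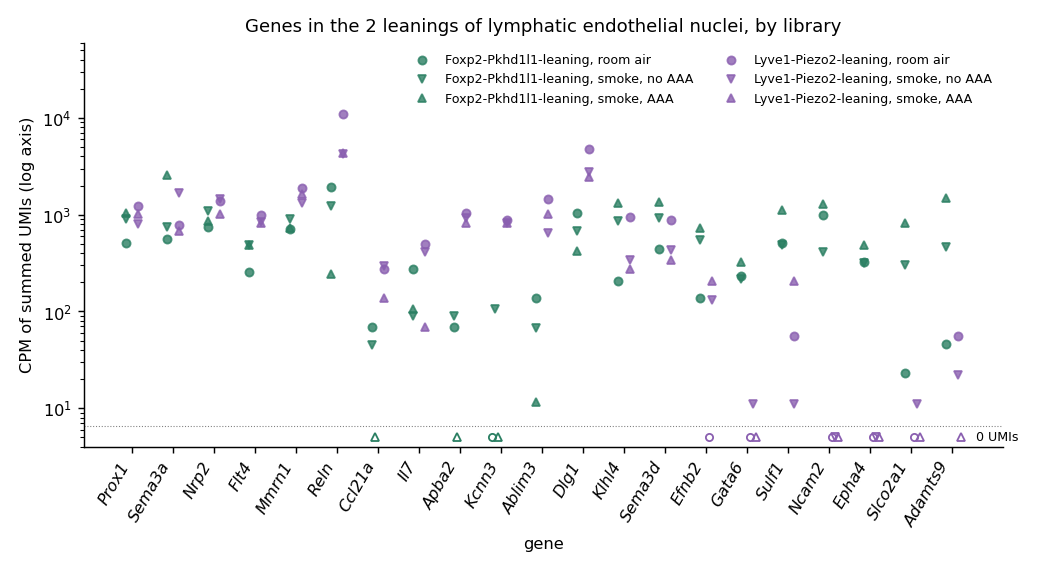
Levels (CPM, log axis) of 21 genes in lymphatic endothelial nuclei that lean to Foxp2 and Pkhd1l1 (green) or to Lyve1 and Piezo2 (purple), by library (marker shape), without nuclei led by blood endothelial genes. Open markers under the dotted line stand for 0 UMIs, as for Ncam2 and Epha4 in the purple set of all 3 libraries, while Prox1 is present in both sets of all 3.

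The smoke and room air libraries differ by the exposure, and neither is labelled as having an aneurysm. Of 3097 genes with at least 30 UMIs over both libraries, 378 (12.2%) were at least 2-fold higher and 172 (5.55%) at least 2-fold lower in smoke. Of the 13 lymphatic genes, 10 were measured, 6 were at least 2-fold higher and 0 lower, with a median log2 ratio of 1.12 beside 0.07 over all genes measured. Sema3a was 2.16-fold higher (1.57 to 3.02) and Maf 2.63-fold (1.63 to 4.49). The share of blood-led nuclei moved with this result: without them the median was 0.68, Sema3a was at 704 and 1059 CPM and Maf at 1.84-fold (1.14 to 3.14), and without nuclei in which markers of another class reached the rule genes (9 of 22 in room air, 7 of 67 in smoke) the median was 0.28. Sema3d, at 1.92-fold (1.34 to 2.81), was at 1.35-fold (0.947 to 1.98) without the blood-led nuclei.

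Genes named by rank were thinly counted in room air. Higher in smoke were the kinase gene Tnik (42 UMIs against 0, at least 4.46-fold), Ccdc141 (51 against 1), the monooxygenase gene Fmo2 (65 against 2, 10.3-fold, 2.75 to 87.3), Car8 (33 against 0, at least 3.50-fold), the viral RNA sensor gene Ifih1 (47 against 1) and Nckap5 (47 against 1). Ifih1 was at 15.0-fold, but its log2 ratio of 3.90 turned to -0.52 in nuclei thinned to 1000 UMIs. Lower in smoke were the tropomyosin gene Tpm3 (2.92-fold, 1.98 to 4.31), Gfod1 (2.66-fold), Cmss1 (2.01-fold), the sialyltransferase gene St6galnac3 (1.97-fold), the deubiquitinase gene Otud7b (2.65-fold) and the actin-capping gene Tmod3 (2.32-fold). St6galnac3 was at a log2 ratio of -0.98, and at 0.26 in thinned nuclei. Without the blood-led nuclei, the ratio of smoke to room air was 0.448 (0.268 to 0.766) for Tpm3, 0.629 (0.348 to 1.19) for Gfod1 and 0.718 (0.548 to 0.950) for St6galnac3, and Ifih1 and Nckap5 had 0 UMIs in room air. Cmss1 and Fmo2 differed the same way outside the lymphatic nuclei. Cmss1 was at 1336 CPM in room air and 694 CPM in smoke in all other nuclei and at 986 and 633 CPM in blood endothelial nuclei, and Fmo2 at 43.0 and 89.8 CPM in all other nuclei and 35.9 and 109 CPM in blood endothelial nuclei. They were the 2 of the 12 named genes that differed at least 1.5-fold the same way in both sets. Of the endothelial activation list, 5 of 14 genes were measured and 3 were at least 2-fold higher, beside 12.2% of all genes measured. Among them were the flow-responsive factor Klf4 at 65.4 and 277 CPM (7 and 93 UMIs) and Vcam1, which rested on 1 nucleus. The median log2 ratio of the list was 1.85. It was 0.35 with no minimum of UMIs per gene, 0.47 on the Foxp2 side alone and 2.62 with at least 3 rule genes. Of the genes of smoke-related pathways, 3 of 7 aryl hydrocarbon receptor genes were measured and 1 was at least 2-fold higher. Their median log2 ratio was 0.56, beside 0.07 over all genes. Ahr itself was at 18.7 and 161 CPM (2 and 54 UMIs). The 7 genes summed to 243 and 506 CPM in lymphatic nuclei, 309 and 329 CPM in blood endothelial nuclei and 337 and 348 CPM in all other nuclei. Only 2 of 10 NRF2 targets and 2 of 15 interferon-induced genes had enough UMIs. Of 8 proliferation genes only Smc4 was measured, and Mki67 had 0, 2 and 1 UMIs.

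The aneurysm and smoke libraries share the smoke exposure and differ by the aneurysm. Of 3074 genes, 151 (4.91%) were at least 2-fold higher and 369 (12%) at least 2-fold lower in the aneurysm library. The genes first by rank on the higher side were Cmah, Tll1 and Adamts9, and all 3 were also higher outside the lymphatic nuclei. Cmah was at 476 CPM in room air, 800 in smoke and 4518 in the aneurysm library, 5.65-fold higher than in smoke (4.86 to 6.57), with UMIs in 30 of 47 nuclei and 106 of its 501 UMIs in 1 nucleus. Tll1, which encodes a metalloprotease that processes procollagens, was at 691, 928 and 4500 CPM, 4.85-fold higher (4.20 to 5.60), in 38 of 47 nuclei. Adamts9, a secreted metalloprotease gene, was at 28.0, 253 and 1299 CPM, 5.14-fold higher (3.90 to 6.80), in 26 of 47 nuclei. All 3 stood above both other libraries and stayed there without the blood-led nuclei, at 5.07-fold, 4.25-fold and 4.22-fold over smoke. They also did so among nuclei of the Foxp2 side alone, where the log2 ratios were 2.76 for Cmah, 2.10 for Tll1 and 1.98 for Adamts9. In thinned nuclei the log2 ratios of the 3 genes lay between 1.37 and 2.61. In all other nuclei of the smoke and aneurysm libraries Cmah was at 24.6 and 148 CPM, Tll1 at 13.5 and 54.6 CPM and Adamts9 at 32.9 and 131 CPM, ratios of 6.02, 4.05 and 3.98. In blood endothelial nuclei the ratios were 3.44, 2.86 and 3.61. The 3 differences were thus not particular to lymphatic nuclei, although the levels were higher there than in blood endothelial nuclei or in all other nuclei together. Other cell types were not compared one by one. Of the 12 named genes, these 3 were the ones at least 1.5-fold apart the same way in both sets. Plod2, which encodes a collagen lysyl hydroxylase, was at 38.7 and 271 CPM on 13 and 30 UMIs, but in thinned nuclei its log2 ratio of 2.81 turned to -0.033. Ccdc3 (4.85-fold, 2.87 to 8.34) and the integrin gene Itgb4 (5.81-fold, 2.78 to 12.8) were the other 2 genes named. Itgb4 was at 12.1-fold on 23 against 5 UMIs without the blood-led nuclei.

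Lymphatic genes moved in both directions between these libraries. Of 10 measured genes of the list of 13, 2 were at least 2-fold higher and 2 at least 2-fold lower in the aneurysm library, with a median log2 ratio of 0.44 beside -0.04 over all genes. The list median was -0.06 with at least 3 rule genes and 0.05 in nuclei thinned to 1000 UMIs, so its direction depended on these choices. Sema3a was 2.40-fold higher (2.02 to 2.85), Sema3d 1.72-fold (1.37 to 2.15) and Klhl4 1.85-fold (1.46 to 2.34), while Nrp2 was at a ratio of 0.853 (0.673 to 1.07). Without the blood-led nuclei Sema3a was at 2.14-fold (1.80 to 2.54). On the Foxp2 side, without the blood-led nuclei, Sema3a was at 556, 745 and 2573 CPM, whereas on the Lyve1 side it was at 775, 1668 and 685 CPM and was highest in smoke. Kdr was 2.51-fold higher (1.71 to 3.67), the gap junction gene Gja1 3.21-fold (1.96 to 5.24), Calcrl 1.86-fold (1.44 to 2.38) and Emcn, which encodes a sialomucin of endothelium, 2.12-fold (1.59 to 2.80). Kdr, Calcrl and Gja1 were also higher in blood endothelial nuclei of the aneurysm library than of the smoke library, 3.07-fold, 1.64-fold and 1.51-fold, and Emcn was at a ratio of 1.34 there. Sema3a was at ratios of 0.991 in blood endothelial nuclei and 1.22 in all other nuclei. In the same 2 sets Sema3d was at ratios of 0.497 and 1.72, and Klhl4 at 1.39 and 1.66. The rises of Sema3d and Klhl4 were thus also seen in all other nuclei. Reln, a rule gene, was at a ratio of 0.494. On the Foxp2 side it was at 1947, 1243 and 246 CPM, and on the Lyve1 side at 11069, 4208 and 4384 CPM.

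**Figure D5:**
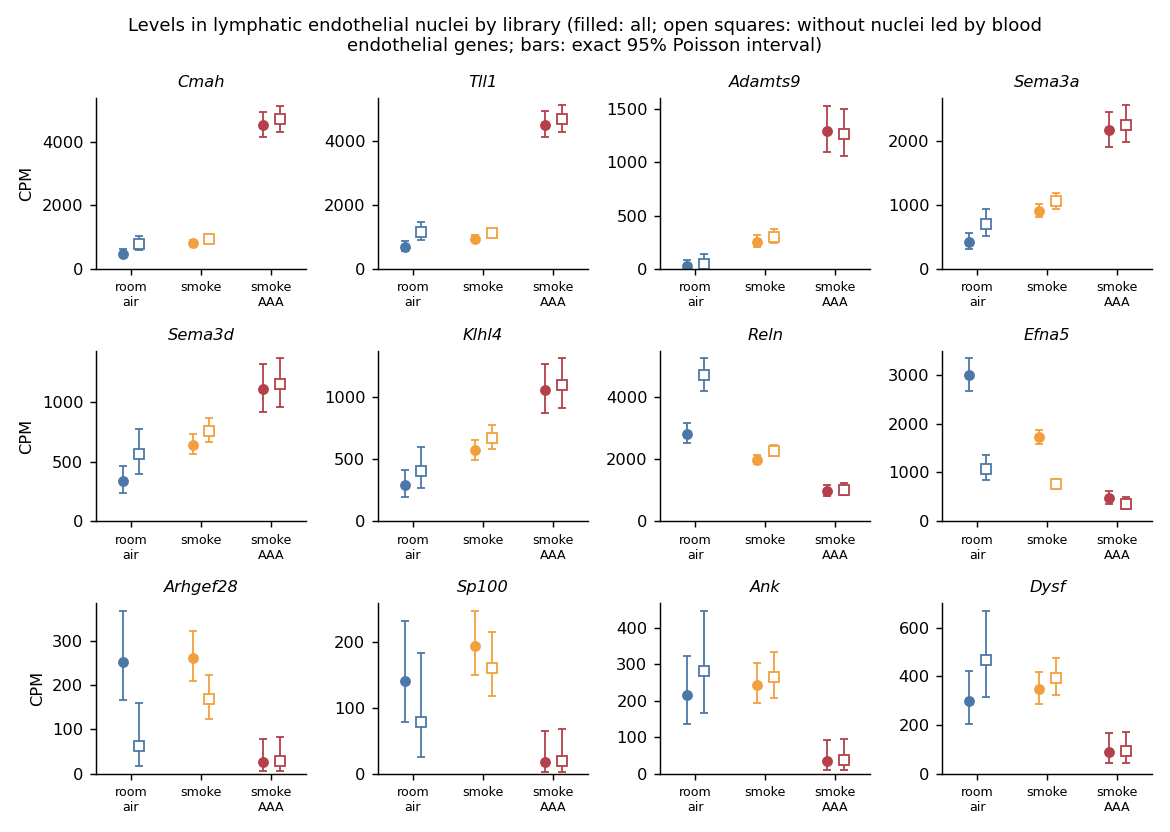
Levels (CPM) of 12 genes in lymphatic endothelial nuclei of the 3 libraries, for all nuclei (filled circles) and without nuclei led by blood endothelial genes (open squares), with exact 95% Poisson intervals. Cmah, Tll1, Adamts9 and Sema3a are highest in the aneurysm library with either set, while Efna5 and Arhgef28 in room air depend on which nuclei are counted.

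Genes lower in the aneurysm library included Arhgef28 (88 UMIs in smoke against 3, 9.67-fold, 3.20 to 47.8), the nuclear body gene Sp100 (65 against 2, 10.7-fold, 2.85 to 90.4), the pyrophosphate transporter gene Ank (82 against 4, 6.76-fold, 2.54 to 25.4), Sh3gl3 (85 against 6, 4.67-fold) and the membrane repair gene Dysf (117 against 10, 3.86-fold, 2.03 to 8.26). The ephrin gene Efna5 was at 2998, 1719 and 478 CPM, in the aneurysm library 3.60-fold lower than in smoke. Efna5 lay largely in the blood-led nuclei, without which it was at 1079, 765 and 357 CPM (2.15-fold lower in the aneurysm library), and Arhgef28 was at 5.97-fold without them. In thinned nuclei the log2 ratio of Efna5 turned from -1.85 to 0.14. Over all genes measured in the smoke and aneurysm libraries, 4.91% were at least 2-fold higher and 12% lower in aneurysm. Their median log2 ratio was -0.04. Of 8 measured immediate early and heat shock genes, 4 were at least 2-fold lower, with a median log2 ratio of -0.86. Fos was at 268 and 99.2 CPM and Jun at 410 and 415 CPM in smoke and aneurysm. Of 7 fibroblast markers, 5 were measured and all 5 were at least 2-fold lower (median log2 ratio -3.09). In smoke, nearly all UMIs of the marker C7 were in 1 nucleus, as given above. Without the top nucleus of each gene, too few fibroblast markers were measured for a median. The same held without nuclei led by another class. Of 8 macrophage markers, 3 were measured, with 1 at least 2-fold lower. Of 16 lipid handling genes, 7 were measured, 3 were at least 2-fold higher and 1 lower in the aneurysm library. The lipase gene Lpl was at 86.2 and 280 CPM (29 and 31 UMIs), the fatty acid binding gene Fabp4 at 35.7 and 162 CPM (12 and 18 UMIs, 10 of the 18 in 1 nucleus) and the transcription factor gene Pparg at 211 and 469 CPM (71 and 52 UMIs). These 3 genes were also higher in all other nuclei of the aneurysm library, at 650, 331 and 859 CPM against 455, 95.2 and 346 CPM in smoke, while the adipocyte markers were at 1 UMI in its lymphatic nuclei. Of 21 genes of matrix and anchorage, 15 were measured, 0 were higher and 3 lower: the fibronectin gene Fn1 at 550 and 234 CPM, the collagen gene Col4a1 at 250 and 108 CPM and Itga1 at 262 and 117 CPM. The median log2 ratio of this matrix list was -0.09, near that of all genes measured. Of 16 valve and collecting vessel genes, 7 were measured and Gja1 alone was at least 2-fold higher, with 0 lower. The part of these other cells' RNA, of the lower depth of the aneurysm library and of tissue handling in the differences was not tested.

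The aneurysm and room air libraries were compared over 1620 genes, of which 191 (11.8%) were at least 2-fold higher and 194 (12%) at least 2-fold lower in the aneurysm library. This comparison shares each of its libraries with one of the others. Adamts9 was 46.3-fold higher (15.5 to 227) on 144 against 3 UMIs, Ccdc3 had 40 UMIs against 1, Cmah was 9.49-fold higher (7.10 to 12.9) and Tll1 6.51-fold (5.09 to 8.43). Without the blood-led nuclei, Adamts9 was at 27.0-fold, Cmah at 6.00-fold and Tll1 at 4.03-fold, and Ccdc3 had 0 UMIs in room air. The few room air UMIs made these ratios unsteady. With no mitochondrial limit the log2 ratio of Adamts9 went from 5.53 to 3.05 and that of Ccdc3 from 5.27 to 1.10, and in thinned nuclei they were 4.09 and 0.45. In all other nuclei the aneurysm library stood above room air as well, 5.29-fold for Adamts9, 6.88-fold for Cmah and 5.05-fold for Tll1. Of the lymphatic list, 6 genes were measured and 5 were at least 2-fold higher, with a median log2 ratio of 1.77 (1.08 without the blood-led nuclei) beside 0.03 over all genes. Sema3a was 5.17-fold higher (3.75 to 7.28), and 3.22-fold (2.33 to 4.53) without the blood-led nuclei. Lower in the aneurysm library were St6galnac3 (2.28-fold, 1.72 to 3.04), Tmod3 (3.20-fold), Dis3l2 (2.64-fold) and the collagen-binding integrin gene Itga1 (2.71-fold).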

How the data were processed

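The deposited values were raw UMI counts per gene and barcode for 33696 features, not normalized by the authors. Per the file headers the matrices come from cellranger 8.0.1. Per the submitters' processing notes the build was mm10, with STAR and Cell Ranger 2.2.0 as tools. The 2 sources differ, and coordinates in the text are those of RefSeq promoters. Nothing states whether introns or strand were used, so UMIs of overlapping genes cannot be told apart. Nuclei came from a sort on anti-nucleus beads.

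The members and the gene lists were chosen with earlier results of these data known. UMIs were summed over the members of a library and scaled to CPM, with exact Poisson intervals for CPM, Clopper-Pearson intervals for shares and exact conditional binomial intervals for ratios, all at 95%. A gene was measured with at least 30 UMIs over the sets compared, and a set at 0 UMIs was given a floor of 3 counts. Between libraries, genes were named by the bound of the ratio nearest 1, up to 6 per direction (4 for aneurysm against room air), and against blood endothelium 15 higher and 8 lower. A named gene needed 20 UMIs in 5 nuclei where higher and no nucleus with over 25% of them (for genes higher than in blood endothelium, over the 3 libraries together), and a CPM there no lower than in all other nuclei. Predicted, mitochondrial, ribosomal, haemoglobin, sex-linked and rule genes were left out. Members of the lists could be named too. Genes of the 2 sides of the Foxp2 split were ranked likewise, after the values were seen, 10 per side. A gene of the Lyve1 side is not reported here. Scripts ran in Python 3.11.15 with numpy 2.4.6, scipy 1.17.1 and pandas 2.3.3. The steps that give ratios and intervals were run on simulated Poisson counts, the model that the intervals assume. That run checks the computation only, since it leaves out the gathering of UMIs in single nuclei.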

Additional observations from a re-analysis of the deposited data

How the results depend on the processing

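Counts of genes at least 2-fold apart depended on depth and on the minimum of UMIs. They were 550 for smoke against room air, 520 for aneurysm against smoke and 385 for aneurysm against room air. At a minimum of 60 UMIs they were 230, 221 and 170, with no minimum 2966, 3032 and 2734, and in nuclei thinned to 1000 UMIs 57, 63 and 28. For aneurysm against room air, the count was 175 with at least 3 rule genes and 254 without nuclei led by another class. Against blood endothelium the count went from 318 to 690 when room air was left out. The thinned and stricter sets hold fewer UMIs, so fewer genes are measured. Thinning turned the log2 ratio of Ifih1 (smoke over room air) to -0.52, and those of Plod2 and Efna5 (aneurysm over smoke) to -0.033 and 0.14. The median of the aryl hydrocarbon receptor list over blood endothelium in room air turned from -0.66 to 0.0085 without nuclei led by another class. The cause was not tested. Of the alternatives for shares and gene counts, 63 stayed within the main interval or within 1.5 times the main count, and 12 did not. Of 411 alternatives for named genes, 407 kept the sign of the log2 ratio and 4 did not, and 91 moved the ratio by more than 1.5-fold. Those with few UMIs in room air moved most: over the alternatives the log2 ratio to room air ran from 3.05 to 6.93 for Adamts9 and from 0.45 to 6.05 for Ccdc3 in the aneurysm library, and from 1.41 to 4.03 for Fmo2 in smoke. Over smoke, the log2 ratios of Cmah, Tll1 and Adamts9 all lay between 1.37 and 2.95. The log2 ratio of St6galnac3 (smoke over room air) went from -0.98 to 0.26 in thinned nuclei. Of 867 alternatives for list medians, 731 kept the sign, 136 did not, and 89 moved by more than 1.5-fold. No paired analysis was possible because each group is 1 library, and for the same reason no replicate could be left out.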
